A study of Mus musculus with 16 samples.

Results

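The uterus of adult mice that had been given genistein as newborns was compared with the uterus of mice given the oil alone, both without dexamethasone in adulthood. The comparison took 8 of the 16 arrays of the series, the 4 titled GenV and the 4 titled SalV, and covered every gene measured. All mice received either 20 µl corn oil or 50 mg/kg genistein in corn oil on postnatal days 1 to 5, lost the adrenals and the ovaries at 6 weeks of age, and were injected at 8 weeks. GenV mice had genistein as newborns and an injection of 100 µl saline as adults. SalV mice had the vehicle as newborns and the same saline injection, and their uteri, like those of GenV, were taken 4 h later. The sample labels call the newborn control treatment saline, whereas the design text calls it corn oil. The other 8 arrays, SalD and GenD, are from mice with the same newborn treatments that received 1 mg/kg dexamethasone, a synthetic glucocorticoid, in place of saline. RNA came from the entire uterus, so epithelium, stroma, muscle and any attached tissue were measured together. Fewer cells of a type and less RNA per cell cannot be told apart in such samples. The labels do not give the strain or say whether each array came from a separate animal, and the tests below know only how far the arrays of a group scattered, which may be technical.

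Genistein is a soy isoflavone that binds estrogen receptors. The rodent uterus completes its differentiation after birth: glands bud from the lumen, and stroma and muscle form their layers under the control of Wnt, Hox and Hedgehog genes. Estrogenic compounds in this window are known to alter uterine differentiation and later responses to steroids, with Ltf, the milk and uterine protein lactoferrin, among the genes known to stay altered. In the adult, estradiol drives epithelial cells into the cell cycle and induces the Sprr2 genes, which encode small proline-rich proteins of the epithelial envelope. Both the ovarian and the adrenal source of steroids had been removed from all of these mice.

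Levels are given as log2 signal minus the 75th percentile of the array's own spots, so 0 is the level of that percentile and 1 unit is a doubling of signal. Levels of different genes are not compared, because each probe has its own brightness. A difference is the GenV mean minus the SalV mean on that log2 scale, with its standard error (SE) from limma, a linear model fitted to all genes on all 16 arrays, and an adjusted p is Benjamini-Hochberg adjusted over all 25045 genes tested. A gene was called at an adjusted p below 0.05. With 4 arrays a group, n = 4 for every mean below.

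1 gene of 25045 was called, which is 0.00399% of those tested. It was 4930577N17Rik, a gene known by its RIKEN clone name. Its level on SalV arrays 1 to 4 was -5.37, -5.15, -5.40 and -5.34, and on GenV arrays 1 to 4 it was -4.38, -4.47, -4.20 and -4.31. All 4 GenV arrays lay above all 4 SalV arrays, and neither group's own arrays spread by more than 0.12 (SD). The gene rose by 0.97 (SE 0.12), a 1.96-fold higher signal, with an adjusted p of 0.0329 from limma. The call was lost on leaving out any 1 of the 8 arrays (adjusted p 0.0588 to 0.200) and with slide as a fixed block (0.0832). The direction turned under normexp, which corrected the median spot signals for background and added an offset of 50. It replaced the scanner software's processed signal, so signal measure and background correction changed together. The difference was then -0.29 with an adjusted p of 0.731 from limma, and the gene is dim on this platform.

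Every other gene missed the threshold, and the second smallest adjusted p was 0.344. At an unadjusted p below 0.05, 3471 genes (13.9%) differed, of which 1778 (7.1%) were higher and 1693 (6.76%) lower in GenV. The 4 GenV arrays did not overlap the 4 SalV arrays in 728 genes on the higher side (2.91%) and in 475 on the lower side (1.9%). The median difference over all genes was 0.05. It was -0.26 after normexp. Among the 5009 genes with the lowest mean level the median difference was 0.18 and became -0.80 after normexp, and among the 5009 with the highest it was 0.08 and became 0.15. The unadjusted count was 1543 without GenV array 3, 2137 without GenV array 4, 1843 without SalV array 2 and 2035 without SalV array 4.

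**Figure D1:**
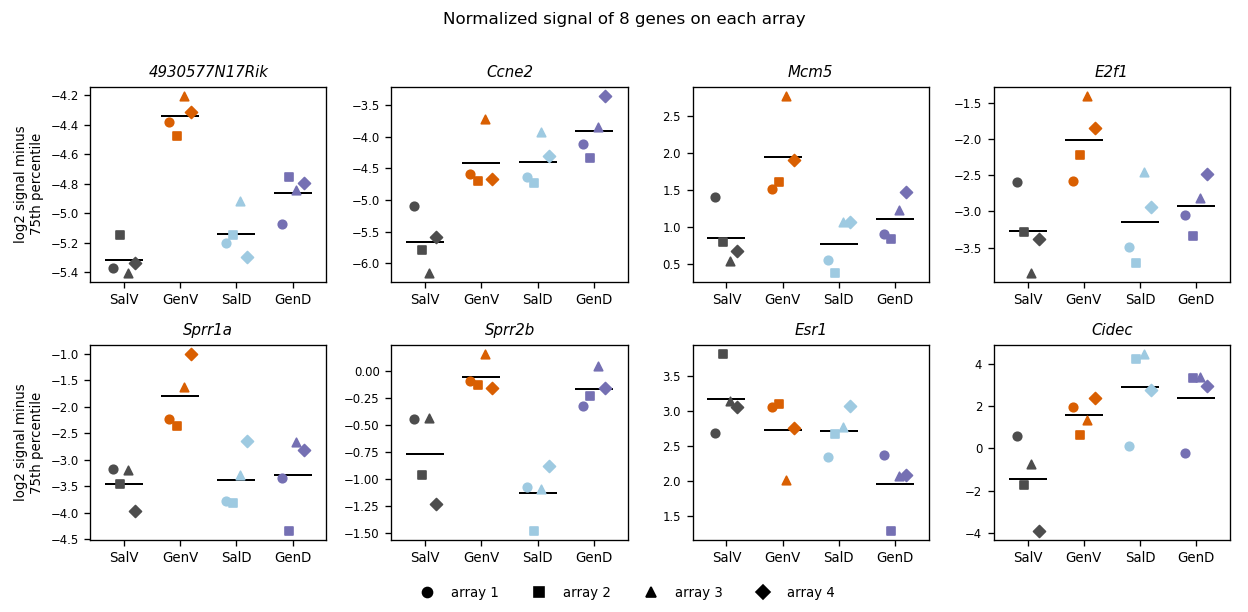
Level (log2 signal minus the array's 75th percentile) of 8 genes on each of the 16 arrays. Points are single arrays, symbols give the array number within its group, and bars are means of 4 arrays. GenV lies wholly above SalV in all genes plotted except Esr1, and only 4930577N17Rik passed the test across all genes, with SalV at -5.40 to -5.15 and GenV at -4.47 to -4.20.

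Genes of DNA replication and cell division formed the list with the highest share of members above the unadjusted threshold among those described here. Of 33 measured members, 21 were higher in GenV at an unadjusted p below 0.05 and 0 lower, against 7.1% and 6.76% of all genes, and the mean was higher in 33 of 33. None was called. The median difference was 0.69, against 0.05 over all genes. Without GenV arrays 3 and 4, 3 of the 33 were above that threshold, where 4.14% of all genes were higher. Those arrays were picked by their own values and their removal leaves fewer GenV arrays. Lower counts without both are therefore partly built in, here and below. In the counts that follow, the share of all genes higher in the same fit stands in brackets. The count was 8 without GenV array 3 (4.04%), 13 without GenV array 4 (5.11%) and 10 without SalV array 3 (7.27%). It was 11 without SalV array 2 (4.01%) or without SalV array 4 (4.13%). After normexp the count was 12 (3.37%). Within the 3 slides that held an array of each group the median difference was 0.89, 0.83 and 0.56.

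Promoters of 3 members are printed here because they hold letters of the site bound by E2F factors, which drive genes of DNA synthesis, and these 3 had the smallest p among the members that hold them. Each run covers 250 bases before to 50 bases after the start, from RefSeq on GRCm38.p6, written 5′ to 3′ on the gene's own strand. Capitals mark matches to TTTCCCGC, TTTGGCGC, TTTCGCGC or TTTGCCGC on either strand, and overlapping matches run together.
Mcm5, chr8:75109259-75109558, plus strand: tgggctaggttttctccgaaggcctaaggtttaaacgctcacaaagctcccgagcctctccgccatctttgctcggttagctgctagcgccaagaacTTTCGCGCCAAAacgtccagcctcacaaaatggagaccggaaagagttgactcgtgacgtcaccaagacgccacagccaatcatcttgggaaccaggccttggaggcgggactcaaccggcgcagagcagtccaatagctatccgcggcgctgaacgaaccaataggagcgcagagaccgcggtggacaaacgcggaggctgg
Mcm3, chr1:20820263-20820562, minus strand: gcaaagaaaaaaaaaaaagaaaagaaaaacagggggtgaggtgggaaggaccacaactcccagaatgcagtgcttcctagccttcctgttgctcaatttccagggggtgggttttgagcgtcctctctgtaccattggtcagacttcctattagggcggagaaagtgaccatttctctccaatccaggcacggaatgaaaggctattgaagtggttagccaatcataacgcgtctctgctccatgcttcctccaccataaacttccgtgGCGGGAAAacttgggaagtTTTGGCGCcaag
Cdc6, chr11:98907901-98908200, plus strand: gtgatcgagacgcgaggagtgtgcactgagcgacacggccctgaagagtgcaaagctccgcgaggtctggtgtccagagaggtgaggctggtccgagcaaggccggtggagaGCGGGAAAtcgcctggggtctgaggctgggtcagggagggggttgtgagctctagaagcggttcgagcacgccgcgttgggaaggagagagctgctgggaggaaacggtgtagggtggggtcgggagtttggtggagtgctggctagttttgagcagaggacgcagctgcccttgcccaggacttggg
Of 27 members with a window, 6 (22.2%) held such a match, against 521 of 13363 genes tested that had a window (3.9%). The 6 were Mcm5, Mcm3, Cdc6, Mcm6, Mcm7 and Cdk1. A match is a description of letters and not of binding.

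Mcm5, a subunit of the replicative helicase whose promoter holds 2 overlapping matches, stood at 1.40, 0.79, 0.53 and 0.67 on SalV arrays 1 to 4 and at 1.51, 1.61, 2.78 and 1.91 on GenV arrays 1 to 4. The groups did not overlap, SalV array 1 came nearest the lowest GenV array, and GenV array 3 was highest. The difference was 1.10 (SE 0.28), and it did not pass (limma unadjusted p = 0.00157, adjusted p = 0.344). Mcm3, another helicase subunit, was at -0.39, -0.41, -0.67 and -0.70 in SalV and at -0.27, -0.14, 0.82 and 0.47 in GenV. Arrays 3 and 4 stood well above the rest, and the difference was 0.76 (SE 0.21). Cdc6, which loads the helicase onto origins, had -3.06, -4.07, -4.73 and -4.21 in SalV and -3.31, -2.98, -1.73 and -2.73 in GenV. Here the groups overlapped, since SalV array 1 was above GenV array 1, and the difference was 1.33 (SE 0.44).

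E2f1, one of the activating E2F factors, was at -2.59, -3.28, -3.85 and -3.38 in SalV and at -2.58, -2.22, -1.40 and -1.84 in GenV. SalV array 1 and GenV array 1 met, and the rest were apart. The difference was 1.26 (SE 0.33, limma unadjusted p = 0.00186), and 0.74 on its other probe. Ccne2, a cyclin of the entry into S phase, had the smallest unadjusted p of the list, 0.000731 by limma. Its SalV levels were -5.09, -5.79, -6.15 and -5.59 and its GenV levels -4.59, -4.70, -3.72 and -4.66, a difference of 1.24 that turned to -0.27 after normexp. GenV array 3 was far above the other 3 GenV arrays in this gene. Pcna, the replication clamp, and Tk1, which salvages thymidine, differed by 0.60 (SE 0.18) and 1.27 (SE 0.42). Ccnb1, a mitotic cyclin, differed by 0.96 (SE 0.50) and Mki67, a marker of cycling cells, by 0.65 (SE 0.44), with unadjusted limma p-values of 0.0742 and 0.167. Uhrf1, which recruits the maintenance DNA methyltransferase at replication, differed by 1.12 (SE 0.47), and GenV arrays 3 and 4 at 1.25 and 0.88 stood above GenV arrays 1 and 2 at -0.15 and -0.06.

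On single arrays the median level of the 33 genes, each set against its mean over 16 arrays, was 0.02, -0.40, -0.64 and -0.40 on SalV arrays 1 to 4, and 0.01, 0.21, 0.95 and 0.40 on GenV arrays 1 to 4. SalV array 1 thus lay level with GenV array 1, and GenV array 3 was highest of the 8. The 27 markers of luminal and glandular epithelium moved with GenV arrays 3 and 4 as well. Their median was -0.38, -0.37, 0.57 and 0.60 on GenV arrays 1 to 4 and -0.39 to -0.04 in SalV. The part of the epithelial markers in the proliferation values was not tested.

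The small proline-rich genes were the other list with most members above the unadjusted threshold. Of 10 measured members, 6 were higher and 0 lower, against 7.1% and 6.76% of all genes, and the median difference was 0.71. The list's median level was 0.11, -0.0044, -0.13 and -0.34 on SalV arrays 1 to 4 and 0.42, 0.58, 1.01 and 0.72 on GenV arrays 1 to 4, so that the groups did not overlap. Without GenV arrays 3 and 4, 2 of 10 were above the threshold, against 4.14% of all genes, and after normexp 2 of 10, against 3.37%. Leaving out 1 array gave 5 to 8, where 4.01% to 10.7% of all genes were higher. Sprr2 genes are near-identical neighbours, and a probe for one may bind transcripts of others, so members are not independent.

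Sprr1a, a cornified envelope protein of squamous cells, was at -3.18, -3.46, -3.18 and -3.98 in SalV and at -2.23, -2.36, -1.63 and -1.0 in GenV. No GenV array overlapped a SalV array, and the difference was 1.64 (SE 0.39, limma unadjusted p = 0.000909, adjusted p = 0.344). Sprr2b had -0.45, -0.96, -0.44 and -1.23 in SalV and -0.09, -0.13, 0.16 and -0.16 in GenV. The 4 GenV arrays lay close together for this gene, without the gap between arrays 1 and 2 and arrays 3 and 4, and the difference was 0.71 (SE 0.19). Sprr2g differed by 1.32 (SE 0.46) with GenV array 3 far above the others. Sprr2f, at -0.22, -0.93, 1.12 and 1.85 in GenV, overlapped SalV (-1.61 to -0.53) and differed by 1.52 (SE 0.55).

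The small proline-rich genes were also higher in GenD than in SalD, a comparison that shares no array with GenV against SalV. There 5 of 10 rose and 0 fell at an adjusted p below 0.05, where 16.4% of all genes rose and 6.43% fell (22.9% called in all), with a median difference of 1.07 against 0.12 over all genes. The count was 5 or 6 on leaving out any 1 of the 16 arrays, 4 after quantile normalization and 5 after median scaling or normexp. Sprr2b rose by 0.97 (adjusted p 0.00558), Sprr2e by 1.48 (0.0067), Sprr2j-ps by 1.18 (0.0067), Sprr2k by 1.33 (0.0062) and Sprr4 by 1.77 (0.0144). In GenV against SalV these 5 differed by 0.71, 0.49, 0.71, 0.53 and 0.38, none past the test, and the Sprr4 difference turned to -0.79 after normexp. Sprr1a did not follow: it differed by 0.09 between GenD and SalD (adjusted p 0.884), and the difference between its 2 contrasts, -1.55 (SE 0.56), did not pass over all genes either (limma, unadjusted p = 0.0143).

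**Figure D2:**
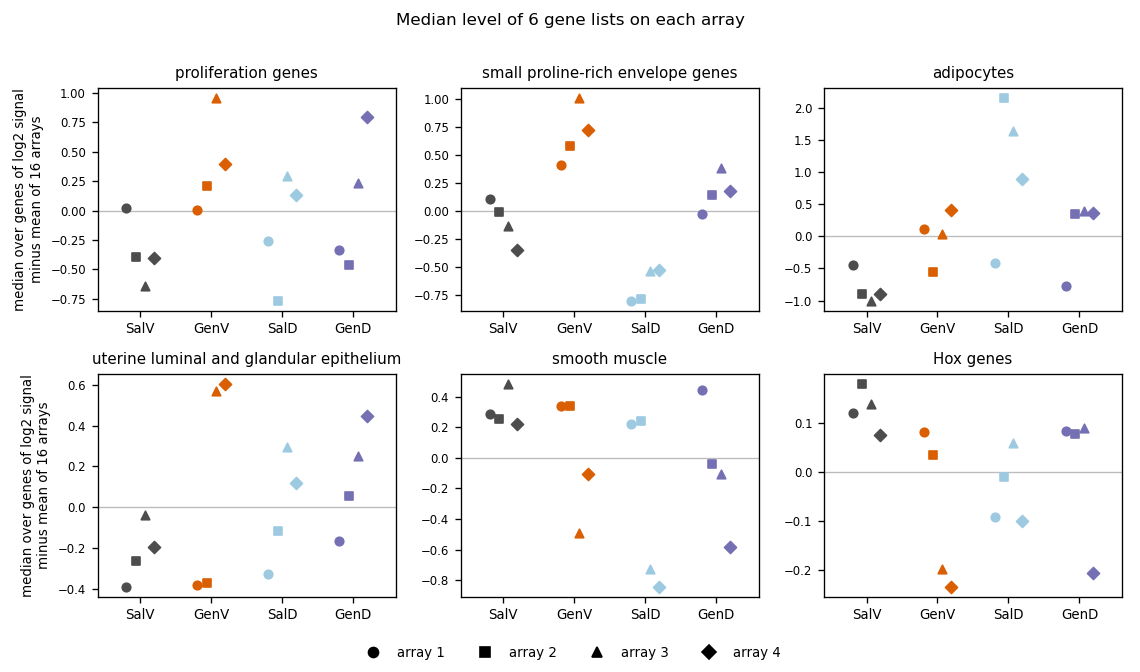
Median level of 6 gene lists on each array, where each gene is set against its own mean over 16 arrays on the log2 scale; points are arrays and symbols give the array number within its group. The small proline-rich list separates GenV from SalV and GenD from SalD, whereas epithelium, smooth muscle and Hox medians set GenV arrays 3 and 4 apart from GenV arrays 1 and 2.

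Among genes known to respond to estrogen in the uterus, 10 of 40 were higher and 2 lower at an unadjusted p below 0.05, against 7.1% and 6.76% of all genes, with a median difference of 0.22. Of the 10, 5 also belong to the proliferation or the small proline-rich list: Mad2l1, Mcm2, Mcm3, Sprr2b and Sprr2f. Without GenV arrays 3 and 4 the counts were 2 and 0, against 4.14% and 0.846% of all genes. Without GenV array 4 they were 4 and 0, against 5.11% and 3.42% of all genes. There were 6 higher without GenV array 3 (4.04% of all genes) or SalV array 4 (4.13%). Myc, a growth-promoting transcription factor, was at 1.67, 1.57, 1.59 and 1.45 in SalV and at 1.97, 1.75, 2.65 and 2.34 in GenV, without overlap. Its difference was 0.61 (SE 0.17). Padi2 and Padi4, which convert arginine to citrulline in proteins, differed by 1.11 (SE 0.35) and 1.18 (SE 0.54), with GenV array 4 highest in both. Ltf spread widely in both groups, from 0.51 to 2.61 in SalV and from 1.22 to 3.94 in GenV, and differed by 1.25 (SE 0.58, limma unadjusted p = 0.0501). The window of none of the 34 promoters available for this list held the palindrome GGTCANNNTGACC, which 5 of 13363 windows (0.0374%) held.

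Of genes linked to newborn estrogen exposure, 4 of 21 were higher and 3 lower at that threshold, against 7.1% and 6.76% of all genes, with a median difference of 0.24. Msx2, a homeobox factor of the epithelium, was at 1.23, 1.04, 0.51 and 1.01 in SalV and 1.32, 1.33, 2.54 and 2.61 in GenV, a difference of 1.00 (SE 0.34). Wnt7a, an epithelial Wnt needed for uterine patterning, differed by 0.79 (SE 0.35). In both genes GenV arrays 3 and 4 were high and arrays 1 and 2 lay at or just above the top of SalV or within its range. Runx1 differed by 0.77 (SE 0.27) on the probe used, with a more even GenV group at -2.21 to -1.78, but by -0.28 on its other probe.

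The receptors themselves did not pass. Esr1, estrogen receptor alpha, was at 2.69, 3.82, 3.14 and 3.06 in SalV and 3.06, 3.10, 2.02 and 2.76 in GenV, and differed by -0.44 (SE 0.30, limma adjusted p = 0.465). Its other probe gave 0.28, so that the direction for Esr1 depends on the probe. Pgr, the progesterone receptor and an estrogen target, was at -1.80 to -1.63 in SalV and at -1.63, -1.77, -0.60 and -1.30 in GenV, a difference of 0.39 (SE 0.31). Nr3c1, the glucocorticoid receptor, was at 1.76 to 2.12 in SalV and 1.62 to 2.10 in GenV and differed by -0.09 (SE 0.13). Leaving out GenV arrays 3 and 4 turned the Nr3c1 difference to 0.053. Esr2, estrogen receptor beta, was well above background on 1 SalV and 3 GenV arrays, so its difference of 1.03 (-0.79 after normexp) rests on signals near background. Of 39 genes known to be induced by glucocorticoids, 1 was higher and 4 lower at the unadjusted threshold, against 7.1% and 6.76% of all genes, and the median difference was -0.09. Per1, a clock gene that glucocorticoids induce directly, was at 0.91, 1.05, 1.75 and 1.28 in SalV and 0.58, 0.71, 0.48 and 0.39 in GenV without overlap, a difference of -0.71 (SE 0.21). Klf9, a zinc-finger factor induced by steroids, differed by -0.54 (SE 0.17) and Tsc22d3, the glucocorticoid-induced leucine zipper, by -0.22 (SE 0.22). Fkbp5, a receptor co-chaperone, differed by -0.72 (SE 0.38) on the probe used, while its other probes gave -0.098 and -0.95.

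Several lists of patterning, clock and stromal genes had more members lower than higher. Of 31 Hox genes 7 were lower and 0 higher at the unadjusted threshold (median difference -0.19), of 12 Hedgehog pathway genes 3 and 0 (-0.29), of 20 clock genes 6 and 0 (-0.28), and of 25 stromal markers 4 and 1 (-0.21). Among all genes 6.76% were lower and 7.1% higher. Without GenV arrays 3 and 4 the lower counts were 1, 0 and 1 for Hox, Hedgehog and clock genes, where 0.846% of all genes were lower. Leaving out 1 array gave 1 to 8 for Hox genes (1 without GenV array 3 or SalV array 4, 8 without GenV array 1 or GenV array 2). It gave 1 to 3 for Hedgehog genes (1 without SalV array 4) and 1 to 7 for clock genes (1 without GenV array 4, 7 without GenV array 1). Of all genes, 2.12% were lower without GenV array 3, 3.99% without SalV array 4 and 3.42% without GenV array 4. The share was 10.8% without GenV array 1 and 11.9% without GenV array 2. The Hox median was 0.071 within the slide that held GenV array 2 and SalV array 4. Ptch1, the Hedgehog receptor and itself a target of the pathway, was at -4.19, -4.14, -4.06 and -3.88 in SalV and -4.54, -4.37, -5.84 and -5.86 in GenV. All GenV arrays were below all SalV arrays, most of all arrays 3 and 4, and the difference was -1.08 (SE 0.32). Gli1, a transcription factor and target of the same pathway, differed by -0.99 (SE 0.41), and Ihh, the ligand made in the epithelium, by -1.09 (SE 0.48). Bmp2, a signal of the decidualizing stroma, was at -2.87, -2.58, -2.97 and -3.05 in SalV and -3.31, -3.17, -4.85 and -4.56 in GenV (difference -1.11, SE 0.34). Wnt5a, a stromal Wnt, differed by -0.57 (SE 0.19) with SalV within -2.98 to -2.84, and Hand2, a progesterone-regulated stromal factor, by -0.57 (SE 0.25). Hoxa11, a uterine patterning gene, was at 4.17 and 4.32 on GenV arrays 1 and 2, within the SalV range of 4.09 to 4.57, and at 3.23 and 3.18 on arrays 3 and 4. Hoxa9 showed the same order, at 0.40, 0.65, -1.13 and -0.64.

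Adipocyte markers were higher at the unadjusted threshold in 8 of 23 genes, lower in 0, against 7.1% and 6.76% of all genes, with a median difference of 0.58. Adipoq, the fat cell hormone adiponectin, was at 0.28, -2.01, -0.75 and -4.37 in SalV and at 1.76, 0.16, 1.09 and 2.10 in GenV, and Cidec, a lipid droplet protein, at 0.60, -1.75, -0.73 and -3.90 against 1.94, 0.61, 1.34 and 2.36. SalV array 4 was lowest in both. Without it 1 of 23 markers was above the threshold, where 4.13% of all genes were higher. There were 5 without GenV array 1 (8.32% of all genes) or GenV array 4 (5.11%). Without GenV arrays 3 and 4 there were 0 (4.14%). The list's median level ran from -1.0 to -0.44 in SalV and from -0.56 to 0.41 in GenV. In the arrays with dexamethasone it ran from -0.42 to 2.15 in SalD and from -0.78 to 0.39 in GenD. There the direction was the opposite, with a median difference of -0.65. At an adjusted p below 0.05, 0 of 23 rose and 4 fell, against 16.4% and 6.43% of all genes. The part of this fat signal in the other differences was not tested.

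Other tissue markers gave smaller counts. The 20 measured basal and squamous markers held 4 that were higher, against 7.1% of all genes. The count was 0 after normexp, 8 without SalV array 3 and 9 without GenV array 2, against 3.37%, 7.27% and 8.19% of all genes. Krt1, a suprabasal keratin, was among the 4 and differed by 0.91 (-0.42 after normexp). Krt5, the basal keratin, spread from -1.32 to 2.04 in SalV and from 0.73 to 3.39 in GenV and differed by 1.44 (SE 0.82), and Trp63, the basal transcription factor, differed by 0.15 (SE 0.33). Trp63 fell in GenD against SalD, by 1.80 (adjusted p 0.00443), and the difference between its contrasts was -1.95 (limma unadjusted p = 0.000835, adjusted p = 0.164), which did not pass. The basal and squamous list as a whole did not follow Trp63 in GenD against SalD, with a median difference of 0.14 against 0.12 over all genes. Of its 20 members 4 rose (Krt10, Krt4, Krt6b and Sbsn) and 2 fell (Trp63 and Col17a1), against 16.4% and 6.43% of all genes. Krt6b, a keratin of stratified epithelium, rose by 1.99 (adjusted p 0.0121). Among immune markers, Ptprc, the pan-leukocyte CD45, differed by 0.07 (SE 0.12), and Tyrobp, a myeloid adaptor, by 0.61 (SE 0.24). Pecam1, an endothelial adhesion molecule, differed by -0.30 (SE 0.24). Of 25 endothelial markers 1 was higher and 0 lower at the unadjusted threshold, against 7.1% and 6.76% of all genes. Their median difference was -0.02. Retnlg, a resistin-like protein of neutrophils, was at -0.76, -1.76, -1.23 and -1.51 in SalV and -0.72, 0.03, -0.15 and 0.28 in GenV, a difference of 1.17 (SE 0.27), whereas the 12 neutrophil markers had a median difference of 0.06. Postn and Col3a1, matrix proteins, did not overlap between groups and differed by 0.65 (SE 0.19) and 0.58 (SE 0.25). The other Col3a1 probe gave 0.37. Crabp2, which carries retinoic acid to its receptor, differed by 2.29 (SE 0.56) but was well above background on only 2 of the 4 SalV arrays, and was -0.16 after normexp. Rdh10, which makes the retinoic acid precursor, differed by 0.59 (SE 0.20).

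Other genes were named only for a small p. Camk2n2, an inhibitor of a calcium-dependent kinase, was at -0.82, -1.18, -1.13 and -1.20 in SalV and -0.54, -0.61, -0.28 and -0.42 in GenV (0.62, SE 0.13). Cux1, a homeodomain factor, differed by 0.65 (SE 0.15) on the probe used, while its other 3 probes gave 1.15, -0.25 and 0.52. Mthfd1l, an enzyme of mitochondrial folate metabolism, differed by 0.59 (SE 0.13), and Dctpp1, which breaks down dCTP, by 0.80 (SE 0.18). On the lower side, Asxl2, a chromatin factor, differed by -0.62 (SE 0.14; 0.19 on its other probe), Foxn3, a forkhead repressor, by -0.63 (SE 0.15), and Slc43a3, a purine base transporter, by -0.65 (SE 0.17). None passed, each with an adjusted p of 0.344 from limma.

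The GenV arrays divided into pairs. On the second principal component of all genes (18.0% of the variance), GenV arrays 1 to 4 scored -42.5, -52.2, 73.2 and 49.7, while SalV arrays scored -70.7 to -38.3. GenV arrays 1 and 2 correlated at 0.988 with each other, and arrays 3 and 4 at 0.983, against 0.963 to 0.969 across. SalV array 1 correlated best with GenV array 1, at 0.986, and its score on the first component (29.7% of the variance), -68.3, was nearest the GenV arrays, whereas the other SalV arrays scored 8.93 to 18.1. GenV arrays 1 to 4 lay on slides 2, 4, 1 and 3 and SalV arrays 1 to 4 on slides 1, 3, 5 and 4, so neither GenV pair shared a slide. The share of spots well above background was 75.3% to 81.3% in GenV and 68.9% to 79.4% in SalV, lowest on SalV array 3, the one array here on slide 5.

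**Figure D3:**
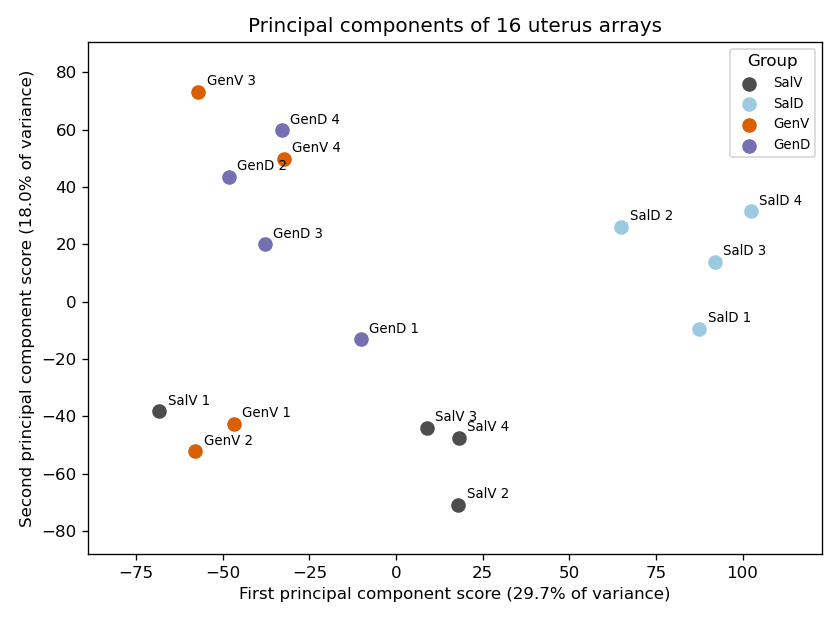
Scores of the 16 arrays on the first and second principal components of all genes, one point per array, coloured by group. GenV arrays 1 and 2 lie beside SalV array 1 at the lower left, and GenV arrays 3 and 4 lie at the upper left beside GenD arrays 2 and 4.

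Gene by gene, the same division was counted over genes well above background on all 16 arrays. GenV arrays 1 and 2 were the 2 highest of the group in 36.4% of these genes and arrays 3 and 4 in 29.3%, together 65.7%. After median scaling the order of the 2 shares turned, to 22.6% and 50.0%, and together they made 72.7%, so the division held under both scalings while the direction depended on the scaling. The most frequent division reached 50.2% in SalV (arrays 1 and 3 apart from 2 and 4), 42.6% in SalD and 37.3% in GenD. After normexp the GenV division was in 62.8% of genes, SalV's most frequent was in 35.6%, and GenD's was in 62.5% (arrays 1 and 3 apart from 2 and 4). The size of the spread depended on whether the processed signal or normexp was used. An SD above 1 was found in 816 of these genes in GenV, 238 in SalV, 314 in SalD and 276 in GenD. After normexp it was found in 186, 1197, 109 and 1083. The median SD over all genes was 0.34 in GenV and 0.28 in SalV, a ratio of 1.22 that was 0.53 after normexp.

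**Figure D4:**
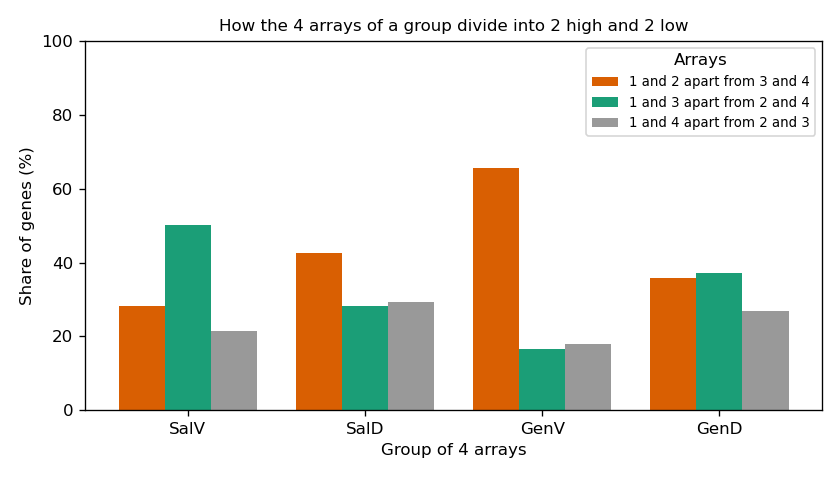
Share of genes (%) in which the 4 arrays of a group divide in each of the 3 possible ways into 2 high and 2 low arrays, over genes well above background on all 16 arrays; bars are shares of genes and carry no error. The division of arrays 1 and 2 from 3 and 4 took 65.7% of genes in GenV and 28.3% in SalV.

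Markers of several tissues followed this division. Of 27 epithelial markers, 22 were higher on both GenV arrays 3 and 4 than on arrays 1 and 2, and 3 lower. The shares over all genes were 24.6% higher and 39.0% lower, and turned to 42.7% and 26.3% after median scaling. The epithelial counts were 22 and 3 after median scaling, 23 and 3 after quantile normalization and 21 and 4 after normexp. Elf3, an epithelial transcription factor, was at -0.12, -0.32, 1.36 and 1.65 on GenV arrays 1 to 4 against -0.47 to 0.26 in SalV, and Krt8, the simple-epithelium keratin, at 4.88, 4.90, 6.10 and 5.91. Arrays 1 and 2 of each lay within or near the SalV range. As a group, 1 of 27 epithelial markers was higher in GenV at the unadjusted threshold, against 7.1% of all genes. Their median difference was 0.30. Of 24 smooth muscle markers, 21 were lower on both arrays 3 and 4 and 1 higher (18 and 1 after median scaling). Of 10 mesothelium markers, 8 were higher on both arrays 3 and 4 and 1 lower, of 28 markers of macrophages and dendritic cells 14 and 4, and of the 33 proliferation genes 21 and 0. Of 25 endothelial markers 14 were lower and 4 higher, but 5 and 5 after median scaling. Synm, an intermediate filament protein of muscle, was at 1.45, 1.44, -1.16 and 0.40 against 1.35 to 2.18 in SalV, and Myh11, smooth muscle myosin, at 3.90, 4.04, 2.34 and 3.16 against 3.68 to 4.32. Acta2, smooth muscle actin, ran from 6.03 to 6.61 in GenV and from 6.44 to 7.16 in SalV. Hoxd4, at 2.28, 2.53, 0.61 and 0.26 in GenV, stood at 2.27 to 2.62 in SalV. Krt8, Krt18, Acta2, Myh11 and Esr1, markers of uterine epithelium, muscle and hormone-responsive cells, were well above background on all 8 arrays.

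The genes with the largest spread within GenV were a mixed set. Kap, the kidney androgen-regulated protein, was at 0.35, 0.16, -7.21 and -3.27 on GenV arrays 1 to 4 and at -0.96, 0.31, -2.14 and -1.98 in SalV. Acsm2, an acyl-CoA synthetase known from kidney, was at -4.72, -4.31, -8.93 and -9.54 in GenV. Spink1, a trypsin inhibitor and one of the epithelial markers above, was at -2.73, -3.39, -7.28 and -6.80. It thus went the other way from most of those markers, which were higher on arrays 3 and 4. In Kap, Acsm2 and Spink1 GenV arrays 1 and 2 were high and arrays 3 and 4 low, and the SalV arrays lay between or overlapped the high ones. Uox, the urate oxidase of liver, went its own way, with 0.53 on GenV array 4 and -4.07 to -3.49 on the other 3 GenV arrays, against -5.31 to -4.79 in SalV. Acsm2 was well above background on 2 of the 4 GenV arrays, and Kap and Spink1 on 3. The genes named here are a selection. Of the 16 genes with a symbol and the largest SD, 6 were olfactory or vomeronasal receptor genes. Of 16 picked the same way among genes above background on all 16 arrays, 4 were. The share of such receptor genes among all genes tested was not counted, so these counts do not show an excess. Adam24 and Avpr1b, also among the most spread, were well above background on 2 of the 4 GenV arrays.

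**Figure D5:**
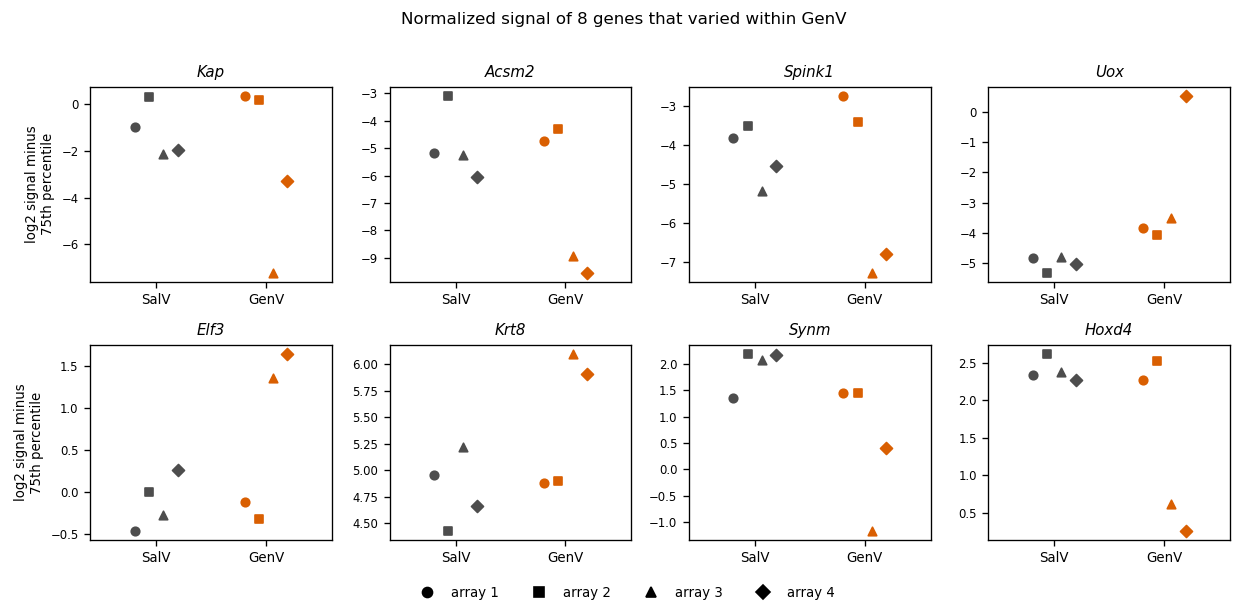
Level (log2 signal minus the array's 75th percentile) of 8 genes on the SalV and GenV arrays; points are arrays and symbols give the array number within its group. GenV arrays 3 and 4 are lowest in Kap, Acsm2, Spink1, Synm and Hoxd4 and highest in Elf3 and Krt8, and GenV array 4 alone is high in Uox.

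With dexamethasone the newborn treatments gave more calls. GenD against SalD gave 5729 called genes (22.9%), 4118 higher and 1611 lower, against the 1 call without dexamethasone. Without GenD array 3 the count was 3330, without SalD array 3 it was 3412, without SalD array 4 it was 3584, and leaving out any other SalD or GenD array gave 3908 to 5355. It was 3345 after normexp, 11192 with array weights, 4706 after median scaling (2635 higher and 2071 lower) and 5446 after quantile normalization (3057 higher and 2389 lower). 4930577N17Rik itself did not pass there: it was at a difference of 0.28 (adjusted p 0.112), -0.044 after quantile normalization. No gene passed a test of the difference between these contrasts over all genes (limma, smallest adjusted p 0.164), although 3898 had an unadjusted p below 0.05. Of the 33 proliferation genes 1 rose in GenD against SalD, where 16.4% of all genes rose. Their median difference was 0.24 there, against 0.69 without dexamethasone. These medians were not compared by a test.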

How the data were processed

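Total RNA (400 ng) from whole uterus was labelled with Cy3 and hybridised to Agilent 1-colour mouse arrays, per the labels' protocols. The deposited files hold scanner intensity values, background-corrected by the authors with Agilent Feature Extraction, version 12.0.0.7 per the file headers and 9.5 per the submitters' processing notes. Here the log2 of the processed intensity of non-control spots was taken, and each array's 75th percentile was subtracted. The scanner's flag for a signal well above background had to be set on 4 or more arrays for a probe to stay (33387 of 41174), and the brightest probe stood for each gene, leaving 25045 genes, 16811 with a symbol, of which the values of 379 held gaps from outlier flags. Of 29245 probes with RefSeq accessions, 28223 matched the current table. limma 3.58.1 in R 4.3.3 was fitted to 4 group means over 16 arrays. On simulated data it was checked to recover known changes. Those changes were larger than most differences reported here, and the simulated noise was independent between genes. The check therefore does not show how well differences of the reported size are found. Figures used matplotlib. Alternatives covered background, scaling, filter, probe summary, slide, replicate number, weights, threshold and leaving arrays out. The number of arrays limits the precision.

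Genes were named by rule: those called or with the smallest p in each direction, up to 2 per list with the smallest p where none was called, those with the largest SD in GenV, and a set of receptors and tissue markers; further members of lists were singled out after their values were seen. The members and the 41 lists were chosen with earlier results of these data known. Gene positions of the deposited files (mm9) and of the reference (GRCm38.p6) were not mixed, and printed promoters come from the latter. Some genes that the rule names are not reported here.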

Additional observations from a re-analysis of the deposited data

Results flagged for a closer look

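Each of 92 genes was checked in 2 groups, SalV and GenV, by Dixon's 95% limit for 4 values. In 9 of these groups 1 array stood apart from the other 3. That is near the 1 in 20 groups that chance alone marks. GenV array 3 was apart in Ccne2 (-3.72, the others -4.70 to -4.59), Sprr2g (-1.18, the others -2.29 to -2.23) and Postn (3.38, the others 2.77 to 2.81). GenV array 4 was apart in Uox (0.53, the others -4.07 to -3.49) and Esr2 (-6.74, the others -7.71 to -7.63). SalV array 3 was apart in Krt18 (6.75, the others 5.96 to 6.02) and Slc43a3 (1.65, the others 1.06 to 1.15). SalV array 4 was apart in Padi2 (-2.75, the others -2.40 to -2.34), and SalV array 1 in Synm (1.35, the others 2.07 to 2.18).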

How the results depend on the processing

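The count of called genes was 1 as reported and with probes above background on all 16 arrays, the mean of probes, every probe by itself, no missing values, slide as a random block and an adjusted p below 0.1. It was 0 with quantile normalization, median scaling, normexp, no filter on dim probes, slide as a fixed block, the replicate block, only the 8 vehicle arrays, a variance trend, a 1.5-fold minimum and without GenV arrays 3 and 4, and 2 with array weights. Leaving out 1 array gave 0 to 1. The cause was not tested. The count at an unadjusted p below 0.05, 3471, was 2256 after normexp, 5445 with slide as a fixed block, 2285 with only the 8 vehicle arrays, 1248 without GenV arrays 3 and 4, and 1543 to 5035 on leaving out 1 array. The deviations of same-numbered SalV and GenV arrays correlated at 0.02, 0.08, 0.05 and 0.16. The labels do not say that equal numbers pair arrays. The replicate block, which gave 3843 genes at that threshold, is therefore given only as an alternative.

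Of the list medians, small proline-rich genes moved to 0.45 (normexp), 0.48 (without GenV arrays 3 and 4) and 0.98 (within slide 4), Hox genes to -0.52 (normexp), -0.073 (array weights), -0.028 (without GenV arrays 3 and 4), -0.55 (within slide 3) and 0.071 (within slide 4), epithelial markers to 0.92, 0.97 and -0.11 within slides 1, 3 and 4, adipocyte markers to 1.37 and estrogen-responsive genes to 0.49 within slide 3. The proliferation median kept between 0.38 and 0.89 in all 25 alternatives. The spread ratio of 1.22 became 0.53 after normexp. After normexp the difference turned for 4930577N17Rik (-0.29), Myl7 (-0.17), Ccne2 (-0.27), Crabp2 (-0.16), Krt1 (-0.42), Sprr2d (-0.37), Esr2 (-0.79) and Sprr4 (-0.79). Without GenV arrays 3 and 4 it turned for Krt18 (-0.048), Elf3 (-0.10), Hoxd4 (0.0013) and Nr3c1 (0.053), with array weights for Elf3 (-0.00367) and Nr3c1 (0.066), with slide as a fixed block for Ptprc (-0.031), and for Trp63 without SalV array 4 (-0.000493) or GenV array 1 (-0.048), where leaving out 1 array gave up to 0.32. The GenD difference of 4930577N17Rik turned to -0.044 after quantile normalization. The fit without GenV arrays 1 and 2 is not given, since it would test arrays kept for their own values. The fit without GenV arrays 3 and 4 also rests on arrays chosen by their values, and it keeps fewer GenV arrays. Lower counts in it are partly built in, and it is given as a description only.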
